A study of Homo sapiens with 33 samples.

Results

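The comparison described here sets G2 cells against S4 cells of HepG2, an established human hepatocellular carcinoma line, at the step where cells leave S phase. Per the labels, cells were sorted along the cell cycle into G1, 4 S-phase fractions numbered S1 to S4, and G2, so that S4 is the last stage before G2. RNA was taken from the G2 fraction in 2 libraries (replicates 2 and 3) and from the S4 fraction in 2 libraries (replicates 2 and 3). These 4 libraries are 4 of the 33 samples of the series. No genotype change or drug sets G2 apart from S4. The molecule is labelled as nuclear RNA. Members are the protein-coding genes with a mean of at least 5 rescaled TPM over the 4 libraries, which left 10616 of 19166 protein-coding genes and of 78932 gene identifiers in all. TPM here is a level per transcript length, after each library had been rescaled to 1000000 over its protein-coding genes. Every difference is G2 minus S4 within the same replicate number, on the log2(rescaled TPM + 1) scale. On this scale differences of genes with low values appear too small.

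Between S phase and mitosis a cell has finished copying its DNA and prepares to divide. Genes for mitotic entry, the spindle and chromosome segregation are known as the G2/M group. They are held down in G1 and switched on late by the MuvB core with B-MYB and FOXM1, through the CHR element and CCAAT boxes of their promoters. Genes for origin licensing and the G1/S transition are instead driven by E2F factors, and the mRNAs of replication-dependent histones, which end in a stem-loop in place of a poly(A) tail, are made during DNA synthesis and broken down when it stops.

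Promoter sequences of genes from both classes show letters of these elements, although the CENPA stretch below holds TTTGAA without CCAAT or ATTGG. The following stretches are the 120 bases before the annotated start, 5′ to 3′ on the strand of the gene, from RefSeq (GRCh38.p14). For the mitotic genes capitals mark TTTGAA (the CHR letters) and CCAAT or its reverse complement ATTGG. PLK1 is the kinase of mitotic entry and spindle assembly (chr16:23678769-23678888, plus strand), CCNB2 a mitotic cyclin (chr15:59105026-59105145, plus strand), CENPA the histone H3 variant of centromeres (chr2:26785936-26786055, plus strand) and MKI67 a chromosome-surface protein of dividing cells (chr10:128126424-128126543, minus strand).
PLK1: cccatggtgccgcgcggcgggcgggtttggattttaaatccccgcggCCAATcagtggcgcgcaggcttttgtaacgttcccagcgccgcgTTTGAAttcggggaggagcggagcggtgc
CCNB2: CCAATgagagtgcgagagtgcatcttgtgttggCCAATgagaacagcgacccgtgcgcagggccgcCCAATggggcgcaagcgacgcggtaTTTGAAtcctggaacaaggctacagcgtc
CENPA: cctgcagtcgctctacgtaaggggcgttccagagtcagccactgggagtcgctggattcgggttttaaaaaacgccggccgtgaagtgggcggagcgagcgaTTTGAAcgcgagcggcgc
MKI67: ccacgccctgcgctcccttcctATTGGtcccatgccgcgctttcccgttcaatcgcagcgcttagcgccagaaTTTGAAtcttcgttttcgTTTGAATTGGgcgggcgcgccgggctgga
In MKI67 the second TTTGAA shares a base with an ATTGG. The next stretches come from genes of the licensing and G1/S list, with CCAAT letters and the E2F-type letters in capitals, on both strands: TTCCCGC, or the variant TTCGCGC, or the variant TTGCCGC, or the variant TTGGCGC. MCM3 (chr6:52284743-52284862, minus strand) and MCM6 (chr2:135876444-135876563, minus strand) are subunits of the replicative helicase, and E2F1 (chr20:33686386-33686505, minus strand) is a transcription factor of S-phase entry.
MCM3: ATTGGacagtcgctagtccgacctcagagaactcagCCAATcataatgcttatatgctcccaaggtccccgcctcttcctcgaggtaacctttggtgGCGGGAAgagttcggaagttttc
MCM6: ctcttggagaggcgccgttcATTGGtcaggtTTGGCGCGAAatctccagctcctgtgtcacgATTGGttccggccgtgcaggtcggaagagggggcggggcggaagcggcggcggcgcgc
E2F1: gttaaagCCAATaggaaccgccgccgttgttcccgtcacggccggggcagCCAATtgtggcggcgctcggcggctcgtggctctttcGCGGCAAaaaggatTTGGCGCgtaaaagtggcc
In MCM6 a pair of overlapping E2F-type matches forms 1 run of capitals.

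Over windows from 250 bases before to 50 after the start, available for 6286 of the 10616 genes with a single listed start, TTTGAA on either strand was present in 611 genes (9.72%). It was present in 49 of 85 mitotic genes with a window (57.6%) and in 1 of 17 licensing genes (5.88%). CCAAT letters were found in 58 of the 85 mitotic genes (68.2%) and in 12 of the 17 licensing genes (70.6%), against 2438 of all 6286 (38.8%). E2F-type letters were found in 13 of the 17 licensing genes (76.5%) and in 20 of the 85 mitotic genes (23.5%), against 1399 of all (22.3%). A match is a description of the letters in a window, not a bound site, and the lists had been chosen for their functions.

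The 4 libraries held between 5447053 and 14042319 recovered reads of protein-coding genes, and the deepest was S4 replicate 3. Counts were recovered from the steps of the values, as described with the processing. Replicates of 1 fraction stood further apart than fractions of 1 number. Across genes, Pearson's r of log2 values was 0.971 between G2 and S4 of replicate 2 and 0.976 between those of replicate 3, but 0.909 between both G2 libraries and 0.926 between both S4 libraries. Mitochondrially encoded mRNAs took 24.4% (replicate 2) and 4.30% (replicate 3) of protein-coding TPM in G2, against 20.3% and 6.04% in S4. Of the 10 hepatocyte markers 9 passed the filter, led by ALB (albumin), whereas 1 of 10 fibroblast markers, none of 10 endothelial markers and 1 of 10 leukocyte markers did. That leukocyte marker was LYZ (lysozyme), with 2379 and 1144 TPM in G2, against 2395 and 1264 TPM in S4. Some genes that every cell uses, RPS3A and RPS18 among them, were listed at or near 0 in all 4 libraries, so a 0 may be a failed estimate. The labels name no separate cultures, and the p-values below cover the spread among these libraries alone, part of which may be technical. In such bulk libraries, fewer cells of a kind and less RNA per cell cannot be told apart.

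No gene passed the main test between G2 and S4. With limma over all 12 sorted libraries and Benjamini-Hochberg adjustment, 0 of 10616 genes were called (0%), and 21 had an unadjusted p under 0.05, of which 10 were higher and 11 lower in G2. The smallest adjusted p was 1.00. This fit has no term for the replicate number, although deviations of same-numbered libraries from their fraction means correlated at 0.577 to 0.696 in all 15 pairs of fractions. With limma's voom on recovered reads and a replicate block, a fit chosen after seeing the data, 4 genes were called (0.0377%), PSME1, PPFIA1, RPN2 and MCM5, all higher in G2. The replicate block on the scale used here called 0. What follows therefore describes which genes had the same direction in both replicates, with their values. The test named below is the fit without the block. The SE beside a mean difference comes from that fit unless the block is named. It therefore includes the offset between replicate numbers, which differences within a number leave out. With the block on the same scale the SE was 0.25 in place of 0.60 for CCNB1, and 0.15 in place of 0.57 for MCM5. In both replicates 2115 genes were higher in G2 (19.9% of all) and 3406 were lower (32.1%). Both G2 values lay above both S4 values for 448 genes (4.22%) and below both for 632 (5.95%). In what follows 2-fold means a difference of at least 1 on the log2(rescaled TPM + 1) scale. Such differences in both replicates were found for 5 genes that were higher (0.0471%) and 4 that were lower (0.0377%). The higher ones were CDK7, PPFIA1 and TEX101, with COX4I2 and TAF11L5 named after their values were seen, and the lower ones were CORT, FAM72B, MT1A and NPFF. Without the pseudocount, ratios above 2 in both replicates were also found for other genes, FOXD4L4, ANGPTL1 and INO80B among them.

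The split between higher and lower depended on how the libraries were scaled. The median difference of all genes was -0.10 in replicate 2 and 0.02 in replicate 3. Of the genes with the same direction in both replicates, 38.3% were higher in G2 here, 50.7% after median-ratio scaling, 50.2% after quantile normalization, 44.4% after rescaling without the 13 mitochondrially encoded mRNAs and 77.6% with the TPM as deposited. Protein-coding genes held 15.3% and 16.1% of the deposited TPM in G2, against 14.1% and 14.4% in S4 (replicates 2 and 3). The deposited scale keeps that difference in share, and the rescaling removes it. Directions of groups are therefore also given below against the median of all genes in the same replicate. On that measure 2866 genes (27.0%) lay below the median of all genes in both replicates, and as many lay above it.

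The differences of single genes were mostly not shared by the replicates. Across genes the differences had an SD of 0.37 in replicate 2 and 0.33 in replicate 3, and their Pearson's r between replicates was 0.049 over all genes. It was 0.23 among the 2110 genes with a mean of at least 100, a description across genes, which are not independent. The median counting error of a difference was 0.13 in replicate 2 and 0.10 in replicate 3, so counting accounts for only part of that spread. By chromosome, median differences ran from -0.14 to -0.06 in replicate 2 and from -0.02 to 0.08 in replicate 3.

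**Figure D1:**
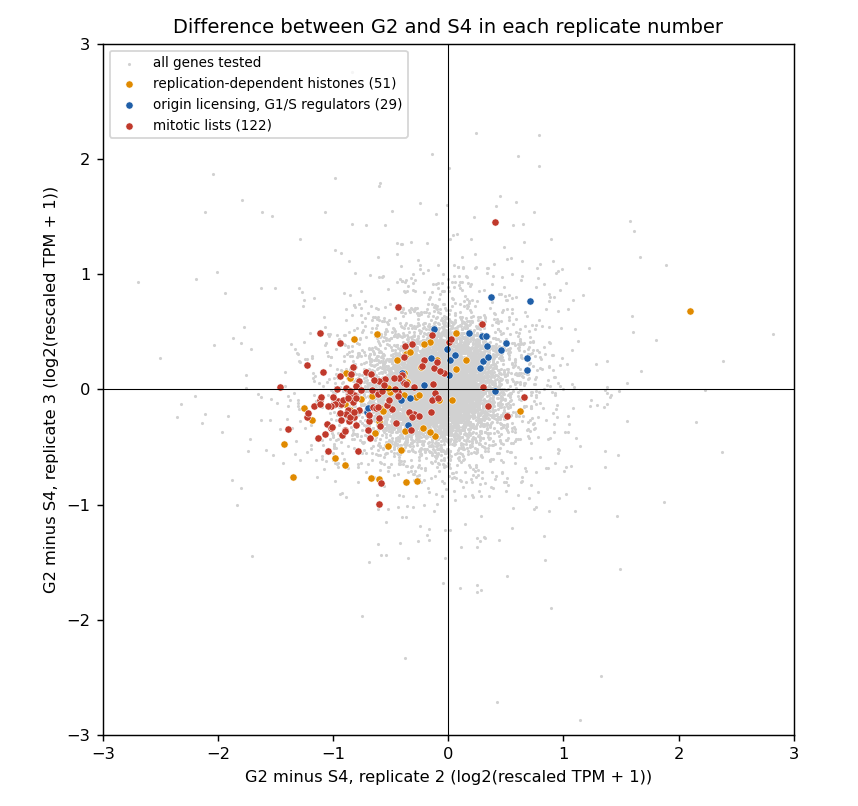
Difference between G2 and S4 of each gene in replicate 2 (x axis) and replicate 3 (y axis), in log2(rescaled TPM + 1), with 10 genes outside the axes. Mitotic genes (red) lie left of 0 in replicate 2 but close to 0 in replicate 3, and licensing genes (blue) lie mostly above 0 in both.

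Genes of mitosis had lower values in G2 than in S4, by a large margin in replicate 2 and a small one in replicate 3. Of 122 measured genes in 7 mitotic lists (126 listed), 77 were lower in both replicates, 5 were higher in both and 40 went in opposite directions. The median difference was -0.69 in replicate 2 and -0.07 in replicate 3, beside -0.10 and 0.02 for all genes. Against the median of all genes, 81 of the 122 lay below it in both replicates and 7 above. With the TPM as deposited, 40 were lower and 11 higher in both, and the median in replicate 3 was 0.08, which is still below the 0.16 of all genes on that scale. None of the 122 passed the test. The fraction named G2 thus did not hold the highest mitotic values: in replicate 2 the median level of these genes on the log2 scale was 5.75 in G2, 6.42 in S4 and 6.63 in S3, and in replicate 3 it was 7.05 in G2, 7.10 in S4 and 6.92 in S3.

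CCNB1, the cyclin that drives CDK1 into mitosis (chromosome 5, 69167150 to 69178245, GRCh38.p14), had 180.1 and 465 TPM in G2, against 350.4 and 498 TPM in S4 (replicates 2 and 3). The G2 value of replicate 2 was the lowest of the 4 and the groups overlapped, because replicate 3 was higher in both fractions. Its difference was -0.96 in replicate 2 and -0.10 in replicate 3, with a mean of -0.53 ± 0.60 (SE; limma, adjusted p = 1.00). PLK1 (chromosome 16, 23678889 to 23690367) had 158 and 397 TPM in G2, against 278 and 411 TPM in S4. Here too the replicate 3 libraries were nearly level and the difference came to -0.81 and -0.05. CDK1, the kinase itself, had 59.7 and 264 TPM in G2, against 109.9 and 277 TPM in S4. Both replicates of G2 lay under their S4 partner, but replicate 3 of G2 was far above replicate 2 of S4. CCNB2 had 80.9 and 139.7 TPM in G2, against 125 and 142 TPM in S4, with the same order.

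The mitotic genes whose groups did not overlap were CDC25C, CENPF, NUSAP1, TUBA1B and NCAPD2, 5 of the 122 (4.10%), beside 5.95% of all genes lower without overlap. CENPF, a large kinetochore protein (chromosome 1, 214603195 to 214664571), had 132 and 234 TPM in G2, against 247 and 300.4 TPM in S4. Both G2 libraries were below both S4 libraries, with differences of -0.89 and -0.36 and a mean of -0.63 ± 0.33 (SE; limma, adjusted p = 1.00). CDC25C, the phosphatase that activates CDK1, had 56.7 and 101 TPM in G2, against 113 and 111 TPM in S4. The S4 libraries were level, and G2 fell short of them mainly in replicate 2. NCAPD2, a condensin subunit, had 127 and 168 TPM in G2, against 182 and 179.8 TPM in S4, and TUBA1B, an alpha-tubulin, 167 and 175 TPM in G2, against 212 and 202 TPM in S4. NUSAP1, a spindle-associated protein, had few reads, with 4.04 and 6.48 TPM in G2, against 6.64 and 13.9 TPM in S4.

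TOP2A, the topoisomerase that untangles sister chromatids, had 284 and 678 TPM in G2, against 543 and 815 TPM in S4. It was the most abundant of the mitotic genes named here, and each G2 library was below the S4 library of the same number. CENPA had 58.2 and 155 TPM in G2, against 123 and 203 TPM in S4, with differences of -1.07 and -0.38. MKI67 had 143 and 251 TPM in G2, against 230.0 and 294 TPM in S4, with the same order within each number. PSRC1, a spindle regulator, had 96.5 and 251 TPM in G2, against 212 and 337 TPM in S4. KIF20A, a kinesin of cytokinesis, had 52.6 and 273 TPM in G2, against 147 and 269.8 TPM in S4. Its difference of -1.46 was confined to replicate 2, with 0.02 in replicate 3. CDC20 and UBE2C, which act in the destruction of cyclin B, likewise had differences of -0.84 and -0.60 in replicate 2 but 0.13 and 0.07 in replicate 3.

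**Figure D2:**
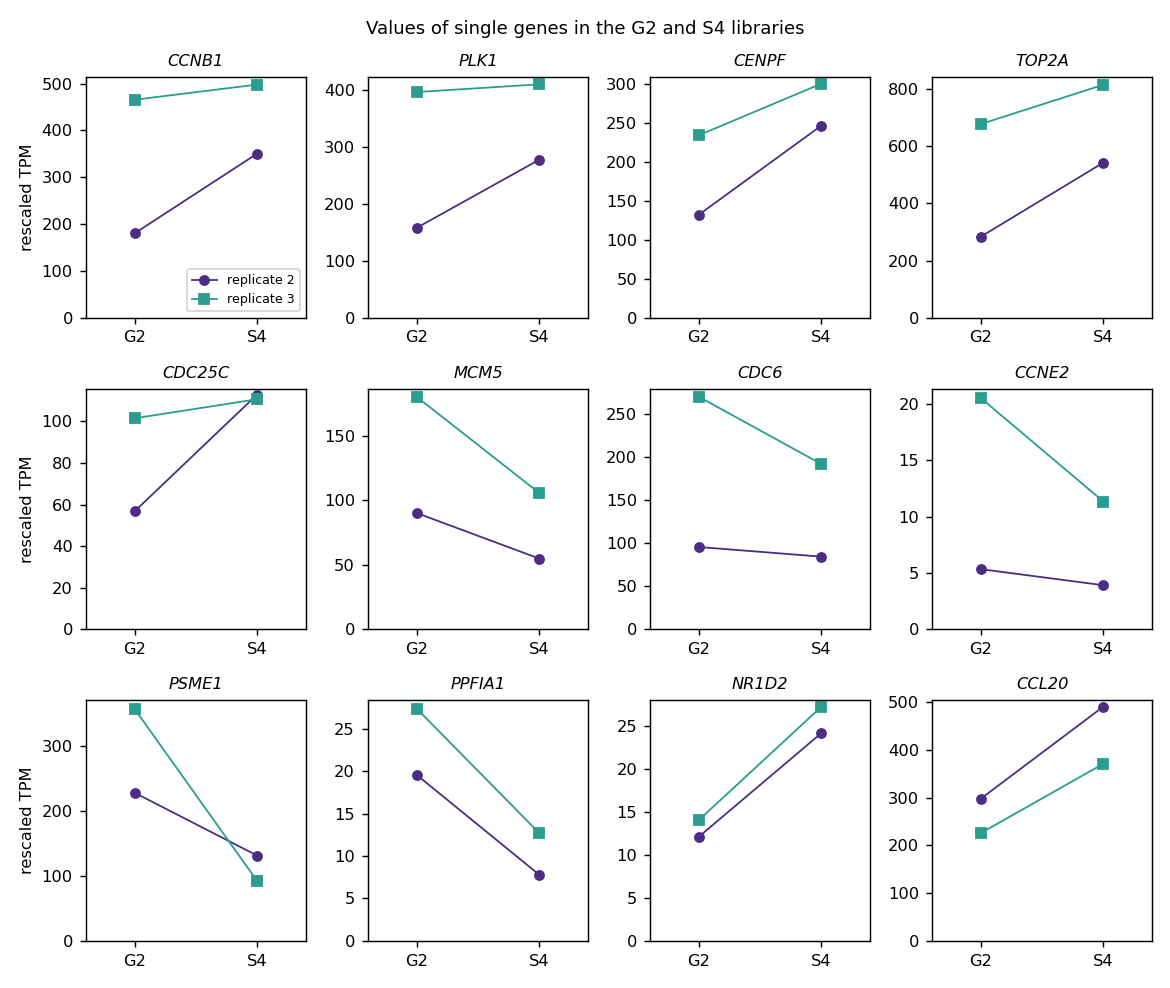
Rescaled TPM (y axes, from 0) of 12 genes in G2 (left) and S4 (right), with a line for each replicate number. Mitotic genes are lower in G2 chiefly in replicate 2, MCM5, CDC6 and CCNE2 are higher in G2 in both replicates, and PSME1 and PPFIA1 lie above S4 and NR1D2 below it without overlap.

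By role, the shortfall in replicate 2 was widest for the kinesins, with a median of -0.88 over 13 genes, and for the spindle and cytokinesis factors, with -0.86 over 27 of 28. In replicate 3 those medians were -0.09 and -0.07. The 14 mitotic and checkpoint kinases had medians of -0.78 and -0.16, and 10 of them were lower in both replicates and none higher. Of the 19 mitotic cyclins, CDK1 and regulators 15 were lower in both and 1 was higher, with medians of -0.62 and -0.06. The 23 centromere and kinetochore genes measured (of 26) had medians of -0.57 and -0.06, and the 10 genes of the list with condensins, TOP2A and MKI67 had -0.60 and -0.09. The anaphase-promoting complex list had the median closest to 0 of the 7 lists in replicate 2 but not in replicate 3, with medians of -0.29 and -0.08 over 16 genes and 7 lower in both.

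The 5 mitotic genes that were higher in both replicates were MYBL2, UBE2S, KIFC1, CENPM and DSN1, a naming made after their values were seen. MYBL2, which encodes B-MYB, had 119.7 and 235 TPM in G2, against 97.6 and 158 TPM in S4, with differences of 0.29 and 0.57. KIFC1, a minus-end kinesin, had 7.22 and 25.9 TPM in G2, against 5.19 and 8.83 TPM in S4, from 21 to 74 reads a library. The values of both genes overlapped between the groups. Within the mitotic lists, genes with TTTGAA in the promoter window had medians of -0.83 and -0.08, and those without it -0.51 and -0.02.

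Genes of origin licensing and the G1/S transition went the other way. Of 29 measured (30 listed), 16 were higher in G2 in both replicates and 6 lower, and the median difference was 0.06 in replicate 2 and 0.26 in replicate 3. Against the median of all genes, 17 lay above it in both replicates and 6 below. Those counts were also 17 and 6 under the other scalings tried, except for 17 and 7 after quantile normalization. For 0 of the 29 did both G2 values lie above both S4 values, beside 4.22% of all genes. None passed the test without the block. The 6 subunits of the replicative helicase, MCM2 to MCM7, stood above the median of all genes in both replicates under all 6 scalings, with medians of 0.29 and 0.41. In the sorted fractions their median level on the log2 scale was lowest in S3, at 5.86 in replicate 2 and 6.63 in replicate 3, and stood at 6.52 and 7.37 in G2, against 6.06 and 6.82 in S4.

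MCM5 (chromosome 22, 35400140 to 35455031) had 90.1 and 180.0 TPM in G2, against 54.8 and 106 TPM in S4. Each G2 library was above its S4 partner by about the same factor, although replicate 2 of G2 lay under replicate 3 of S4. The differences were 0.71 and 0.76, with a mean of 0.74 ± 0.57 (SE; limma, adjusted p = 1.00). With voom and the replicate block MCM5 was called (adjusted p = 0.0306). MCM6 had 41.3 and 81.9 TPM in G2, against 32.8 and 59.1 TPM in S4, and MCM4 70.6 and 149 TPM in G2, against 57.5 and 107.7 TPM in S4. MCM3, the most abundant of the 6, had 458 and 1236 TPM in G2, against 439.9 and 1004 TPM in S4, so that it differed chiefly in replicate 3. MCM2 had 91.9 and 133 TPM in G2, against 75.6 and 117.0 TPM in S4. MCM7 was level in replicate 2, with 207 and 409 TPM in G2, against 208 and 321 TPM in S4. Of these, MCM2, MCM4 and MCM6 were named after their values were seen.

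The cyclins of S-phase entry, of which CCNE2 was low, were higher in G2. CCNE1 had 25.0 and 56.5 TPM in G2, against 15.2 and 46.6 TPM in S4, with differences of 0.68 and 0.27. CCNE2 had 5.34 and 20.5 TPM in G2, against 3.92 and 11.3 TPM in S4, from 23 to 123 reads a library. Both were higher within each number and overlapped between the groups. CDC6, which loads the helicase at origins, had 95.6 and 270.2 TPM in G2, against 84.4 and 192 TPM in S4, and E2F1 had 144 and 247 TPM in G2, against 116 and 209 TPM in S4. Within the same list CDT1, the partner of CDC6, had 75.7 and 129 TPM in G2, against 53.2 and 97.3 TPM in S4. DBF4, the activator of the origin-firing kinase CDC7, went the other way, with 28.4 and 82.8 TPM in G2, against 46.9 and 95.2 TPM in S4. TICRR, a factor of origin firing, had 85.2 and 218 TPM in G2, against 138.8 and 244 TPM in S4, also lower in both. CDT1, DBF4 and TICRR were chosen after their values were seen.

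Genes of the replication fork and of deoxynucleotide supply were divided. Of 36 measured (37 listed), 11 were higher in both replicates and 8 lower, with medians of -0.07 in replicate 2 and 0.14 in replicate 3. Against the median of all genes, 18 lay above it in both and 6 below. PCNA, the sliding clamp, had 215 and 740.4 TPM in G2, against 232 and 620.4 TPM in S4, and its replicates went in opposite directions. RRM2, the small subunit of ribonucleotide reductase, had 89.5 and 178 TPM in G2, against 115 and 186 TPM in S4, lower in both. UHRF1, which keeps DNA methylation through replication and was named after its values were seen, had 84.9 and 189.7 TPM in G2, against 62.6 and 131 TPM in S4, with differences of 0.43 and 0.53.

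**Figure D3:**
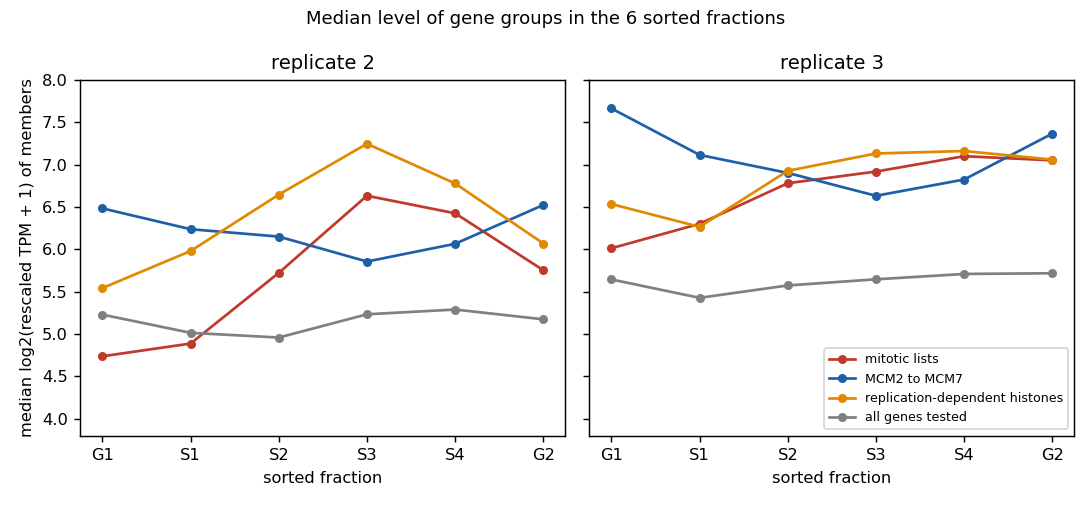
Median log2(rescaled TPM + 1) of the members of 4 groups (y axis) across the 6 sorted fractions in cell-cycle order (x axis), replicate 2 left and replicate 3 right. MCM2 to MCM7 dip at S3 and are higher in G2 than in S4 in both replicates, whereas mitotic genes and histones are lower in G2 than in S4 in replicate 2 and nearly level in replicate 3.

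Replication-dependent histones had lower values in G2. Of 51 measured (65 listed), 30 were lower in both replicates and 4 higher, with medians of -0.39 in replicate 2 and -0.09 in replicate 3. For 11 of the 51 (21.6%) both G2 values lay under both S4 values, beside 5.95% of all genes. Against the median of all genes, 30 lay below it in both replicates and 5 above, and with the TPM as deposited 21 were lower and 7 higher in both. Their median level on the log2 scale was highest in S3 in replicate 2 (7.24) and in S4 in replicate 3 (7.16), and it stood at 6.07 and 7.06 in G2, against 6.78 and 7.16 in S4. None passed the test, and histone genes have near-identical copies whose reads may be divided among them, so single members are uncertain.

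H4C11, a histone H4 gene, had 160.4 and 191 TPM in G2, against 256 and 327 TPM in S4, so both G2 libraries lay under both S4 libraries. Its differences were -0.67 and -0.77, the most even of the histones named here, with a mean of -0.72 ± 0.34 (SE; limma, adjusted p = 1.00). H2BC7, a histone H2B gene, had 139 and 173 TPM in G2, against 210.5 and 298 TPM in S4, and H3C15, a histone H3 gene, had 64.1 and 123 TPM in G2, against 165 and 209 TPM in S4. The groups did not overlap for either gene. H1-4, the most abundant linker histone, had 840.0 and 2409 TPM in G2, against 1196 and 2443 TPM in S4, and was nearly level in replicate 3. H3C2 had 482 and 1357 TPM in G2, against 569.8 and 1187 TPM in S4, with opposite directions in the 2 replicates. SLBP, which binds the histone stem-loop, had 67.9 and 179 TPM in G2, against 80.7 and 126 TPM in S4, with differences of -0.24 and 0.51.

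**Figure D4:**
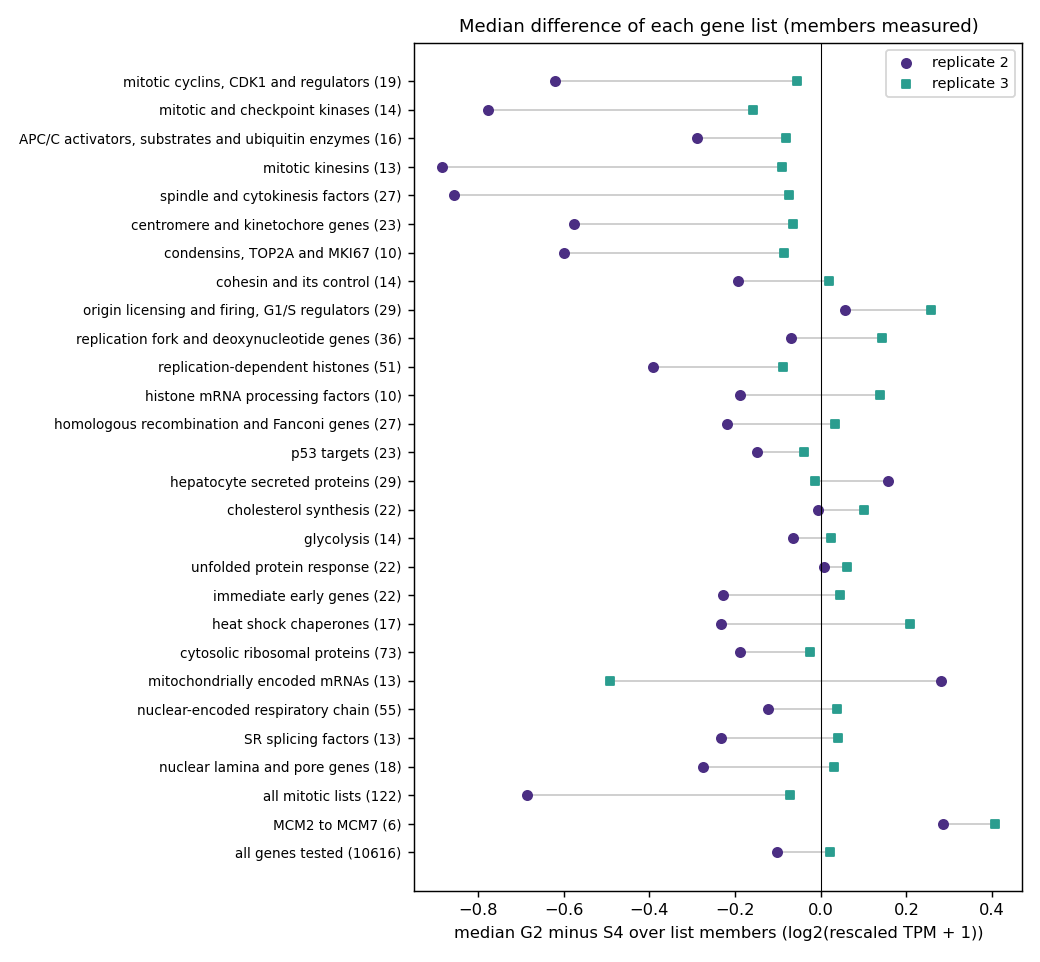
Median difference between G2 and S4 over the measured members of each list (x axis, log2(rescaled TPM + 1)), replicate 2 as circles and replicate 3 as squares, with the number of members in brackets. The mitotic lists other than the anaphase-promoting complex list lie furthest left in replicate 2. MCM2 to MCM7 lie right of 0 in both replicates, and mitochondrially encoded mRNAs have opposite signs.

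Most other lists had medians of opposite sign in the 2 replicates or close to those of all genes. The 13 mitochondrially encoded mRNAs were all higher in G2 in replicate 2 (median 0.28) and all lower in replicate 3 (median -0.49). MT-CO1, a subunit of cytochrome oxidase, had 48374 and 9114 TPM in G2, against 41852 and 12819 TPM in S4. The difference between replicate numbers in this class thus exceeded that between the fractions. Hepatocyte secreted proteins had medians of 0.16 and -0.01 over 29 genes, with 10 higher in both and 2 lower. ALB had 25742 and 10673 TPM in G2, against 23104 and 11678 TPM in S4, with differences of 0.16 and -0.13.

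Of 73 cytosolic ribosomal protein genes (79 listed), 33 were lower in both replicates and 6 higher, and 13 (17.8%) were lower without overlap, beside 5.95% of all genes. With the TPM as deposited that turned to 7 lower and 21 higher in both, whereas against the median of all genes 32 lay below it in both and 7 above. RPS28 had 64.6 and 79.2 TPM in G2, against 86.5 and 99.5 TPM in S4, an example with no overlap. RPL35 was an exception, with 463 and 494 TPM in G2, against 425 and 426 TPM in S4. Nuclear-encoded genes of the respiratory chain were evenly divided, with 16 of 55 above and 16 below the median of all genes in both replicates. Without overlap 8 of the 55 were higher and 6 lower, beside 4.22% and 5.95% of all genes. NDUFS1, the largest subunit of complex I, had 12.8 and 21.7 TPM in G2, against 7.07 and 10.6 TPM in S4, higher without overlap, with differences of 0.78 and 0.97.

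Cohesin and its control had medians of -0.19 and 0.02 over 14 genes, and SMC1A, a core subunit, had 98.5 and 143 TPM in G2, against 99.1 and 142 TPM in S4. Homologous recombination and Fanconi genes had medians of -0.22 and 0.03 over 27 genes, nuclear lamina and pore genes -0.28 and 0.03 over 18, and SR splicing factors -0.23 and 0.04 over 13. The p53 targets had -0.15 and -0.04 over 23 genes, and CDKN1A, the CDK inhibitor p21, had 59.4 and 230.4 TPM in G2, against 66.1 and 266 TPM in S4. Immediate early genes had -0.23 and 0.05 over 22 and heat shock chaperones -0.23 and 0.21 over 17. Glycolysis genes had -0.07 and 0.02 over 14, with GAPDH at 1069 and 779 TPM in G2 and 1018 and 765 TPM in S4. Cholesterol synthesis genes had -0.01 and 0.10 over 22, where PMVK, a kinase of the mevalonate pathway, had 33.1 and 57.2 TPM in G2, against 20.9 and 25.9 TPM in S4. The unfolded protein response list had 0.01 and 0.06 over 22, and the 10 histone mRNA processing factors -0.19 and 0.14.

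The genes with the largest differences in both replicates were ranked by the smaller of the 2 among genes without overlap. They were mostly not members of these lists, which is also true of most genes tested. Among those that were higher without overlap, PSME1, a subunit of the PA28 activator of the proteasome (chromosome 14, 24136194 to 24138962), had 228 and 356 TPM in G2, against 131 and 92.0 TPM in S4. In both replicates S4 was the lowest and G2 the highest of the 6 sorted fractions. From G1 to S3 its values ran from 148 to 224 TPM in replicate 2 and from 244 to 330 TPM in replicate 3. The lowest G2 value of PSME1 stood well above its highest S4 value. The differences were 0.79 and 1.94, with a mean of 1.37 ± 0.39 (SE; limma, unadjusted p = 0.00584, adjusted p = 1.00), and with voom and the replicate block PSME1 was called (adjusted p = 0.00171). PPFIA1, liprin-alpha-1 (chromosome 11, 70270690 to 70384396), had 19.6 and 27.4 TPM in G2, against 7.80 and 12.7 TPM in S4, with differences of 1.23 and 1.05, and was called with voom and the replicate block (adjusted p = 0.00523). In G1 PPFIA1 had 21.4 and 26.9 TPM, close to its G2 values, and S4 was its lowest sorted fraction in both replicates. RPN2, a subunit of the enzyme that attaches glycans to new proteins, was named after its values were seen. It had 400.2 and 263 TPM in G2, against 253 and 107.6 TPM in S4, higher without overlap, with differences of 0.66 and 1.28, and was called in the same fit (voom, replicate block, adjusted p = 0.0213). SQSTM1, the autophagy receptor p62, had 21.4 and 23.3 TPM in G2, against 11.2 and 12.7 TPM in S4. CLSTN3, a calsyntenin, had 16.4 and 21.1 TPM in G2, against 7.56 and 10.7 TPM in S4. CDK7, the kinase that activates other CDKs and belongs to TFIIH, had 9.39 and 20.7 TPM in G2, against 2.48 and 6.88 TPM in S4, from 8 to 47 reads a library. Both replicates gave a difference of at least 1.46, at few reads. The other genes of the 15 were TEX101, FOXD4L4, ANGPTL1, C4A, INO80B, TMEM74B, DHX16, OSTF1, EVA1B and NPPA. FOXD4L4 and C4A have near-identical copies, and their values are uncertain.

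Among those that were lower without overlap, NR1D2, the nuclear receptor REV-ERB beta of the circadian clock (chromosome 3, 23945286 to 23980617), had 12.1 and 14.1 TPM in G2, against 24.2 and 27.3 TPM in S4. Both replicates gave nearly the same difference, -0.94 and -0.91, with a mean of -0.92 ± 0.33 (SE; limma, unadjusted p = 0.0185, adjusted p = 1.00). CDR2, which encodes an antigen of paraneoplastic cerebellar degeneration, had 16.6 and 26.1 TPM in G2, against 32.4 and 49.4 TPM in S4. CCL20, a chemokine, was abundant, with 298 and 226 TPM in G2, against 491 and 371 TPM in S4, and differences of -0.72 and -0.71. EBPL had 48.3 and 57.2 TPM in G2, against 84.0 and 92.0 TPM in S4. For all 4 genes both S4 values lay above both G2 values. For NR1D2 and EBPL S4 was also the highest sorted fraction in both replicates. In G1 NR1D2 had 12.9 and 14.4 TPM and EBPL 62.6 and 53.5 TPM, so these values too were below S4. CORT and MT1A were listed at 0 in replicate 3 of G2 and had at most 27 reads in any of the 4 libraries. Their differences therefore depend on the pseudocount. The remaining genes of the 15 were FAM72B, NPFF, FAM229B, MRPL54, MPV17L2, H3C15, TBX10, TEKT3 and H4C11, and FAM72B belongs to a family of near-identical copies.

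**Figure D5:**
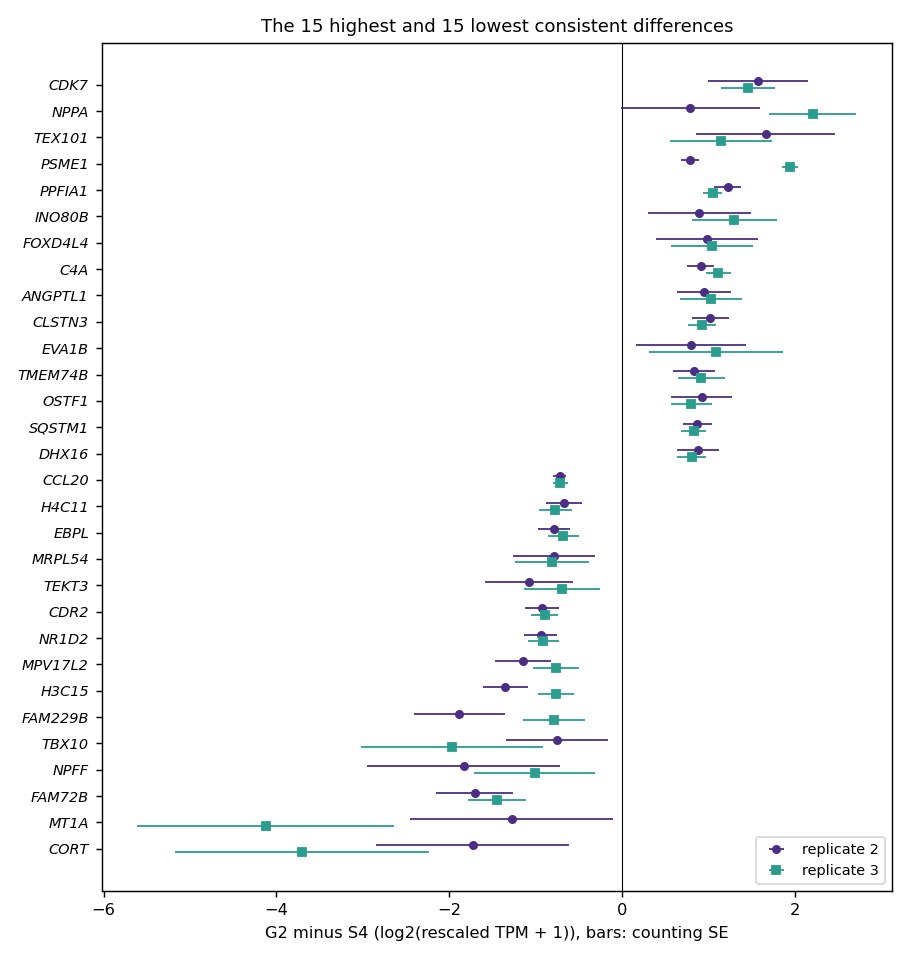
Difference between G2 and S4 (x axis, log2(rescaled TPM + 1)) of the 15 genes highest and the 15 lowest by the smaller of both replicate differences, without overlap between the groups. Circles are replicate 2, squares replicate 3 and bars the counting SE, which is widest for CORT, MT1A, NPFF and other genes with few reads and narrow for PSME1, PPFIA1 and CCL20.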

How the data were processed

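RNA of HepG2 cells was measured in 12 sorted libraries, of which G2 and S4 (replicates 2 and 3) are compared here, with bulk and Repli-seq samples not used. Per the labels' protocols, the kit for sorted cells was a stranded one for total RNA in ultra-low amounts. Tools named by the submitters' processing notes are HISAT2, BWA, SAMtools, cutadapt and Trimmomatic, with the build hg38. What program and annotation gave the gene values, and whether it used strand, is not given in the sources consulted, so overlapping and antisense genes cannot be told apart. The authors deposited log2(TPM + 1) values. They were back-transformed, and identifiers were matched to a RefSeq table (GRCh38.p14) by Ensembl identifier or, failing that, by symbol. Protein-coding genes (19196 identifiers, 30 duplicates dropped) were rescaled to 1000000 per library, including 13 mitochondrially encoded mRNAs. Then log2 values were taken with a pseudocount of 1. Read counts were recovered from the steps of the values for all 19196 identifiers, where 1 count may be a read or a read pair.

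The test was limma 3.58.1 in R 4.3.3 with an intensity trend, two-sided, over 12 libraries without a term for the replicate number, adjusted by Benjamini-Hochberg at 0.05. It was tested on simulated data with independent noise in each library. The simulation held no shift shared by same-numbered libraries, so it does not cover that feature of these data. Tables were made in Python 3.11.15 with pandas 2.3.3 and numpy 2.4.6. Alternatives changed the pseudocount, filter, scaling, trend, weights, libraries and replicate term. Voom on recovered reads with the replicate term, median-ratio scaling with it and rescaling without mitochondrial genes were chosen after seeing the data. Named genes were drawn from 33 preset genes of the cell cycle, histones and liver. They were also drawn from the 15 highest and 15 lowest non-overlapping genes by their smaller replicate difference. Each list added at most 4 members by mean level and at most 3 by the same ranking in each direction. Not all of these are described, a choice made with the values known. Of the preset genes, CCNA2, AURKA, AURKB, PTTG1, TPX2, FOXM1, H4C3 and H2AC20 are given without values, and all were lower in both replicates. Any other gene is marked in the text as named after seeing its values. Members and lists were chosen with earlier results of these data known.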

Additional observations from a re-analysis of the deposited data

How the results depend on the processing

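The test called 0 genes under every alternative except voom on recovered reads with the replicate block, chosen after seeing the data, which called 4 (0.0377%), all higher in G2: PSME1 (1.53 ± 0.21, SE; adjusted p = 0.00171), PPFIA1 (1.20 ± 0.18; adjusted p = 0.00523), RPN2 (1.00 ± 0.17; adjusted p = 0.0213) and MCM5 (0.76 ± 0.14; adjusted p = 0.0306). Under their other alternatives the adjusted p of these 4 lay between 0.498 and 1.00. The replicate block on the main scale called 0 and left 360 genes with an unadjusted p under 0.05, 252 of them lower. Deviations of same-numbered libraries correlated at 0.577 to 0.696 in all 15 pairs of fractions, 0.696 for G2 and S4. No label ties a number to 1 culture or day, and each pair of fractions has only 2 numbers, so the data hint at a pairing that the design does not state.

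Here too 2-fold means a difference of at least 1 on the log2 scale with the pseudocount. Genes at least 2-fold higher and lower in both replicates numbered 59 and 56 with the filter at a mean of 1, 0 and 0 at a mean of 20, and 74 and 82 with no filter. They numbered 9 and 4 with a pseudocount of 0.1, 0 and 1 with 5, and 0 and 0 with the TPM as deposited, where 4410 genes were higher and 1276 lower in both. With no filter 3428 were higher. With replicate 3 alone or replicate 2 alone, 91 or 63 were 2-fold higher, 60 or 162 2-fold lower, 5695 or 3630 higher and 4921 or 6986 lower.

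The median difference of all genes moved from -0.04 to 0.08 with the TPM as deposited. Of 84 genes recomputed, 10 changed sign under at least 1 alternative. That count does not stand for all genes. Of the 10616 tested, 5095 did not have the same direction in both replicates, and leaving out 1 replicate can reverse each of these. Without replicate 2 the differences were 0.13 for CDC20, 0.073 for UBE2C, 0.018 for KIF20A, -0.044 for TYMS, -0.13 for ALB and 0.19 for H3C2, and without replicate 3 they were -0.11 for PCNA, -0.24 for SLBP and -0.012 for MCM7. With the other replicate alone they were -0.84, -0.60, -1.46, 0.10, 0.16, -0.24, 0.25, 0.51 and 0.35 in that order. H3C2 was also 0.12 with the TPM as deposited, 0.021 after median-ratio scaling, 0.11 after quantile normalization, 0.031 with voom and the replicate block and 0.0008001 without mitochondrial genes, and GMNN was 0.037 with the TPM as deposited. The cause was not tested. With 2 libraries a group and a median of 214 reads in a gene's shallowest library, only differences well above the spread between replicates could be called.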
